A study of Mus musculus with 3 samples.

Results

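Conventional CD4 T cells, here the CD4 T cells of 4T1 tumors that carried no Foxp3 transcript and no Ccl1-Penk-Lgals7 program, were taken from single-cell RNA sequencing of CD45+ cells and comprised 349 of 12472 kept cells. Kept cells had at least 1500 UMIs (unique molecular identifiers, each standing for 1 captured transcript), at least 300 genes and at most 20% mitochondrial counts. A T cell had a UMI for at least 2 of the 4 genes Cd3d, Cd3e, Cd3g and Trac, for fewer than 2 of the cycling genes Mki67, Top2a, Birc5 and Cdk1, and none for Trdc, and 1723 cells met this. Members also had at least 1 Cd4 UMI, none for Cd8a, Cd8b1 or Foxp3, and fewer than 2 of Lgals7, Ccl1, Penk and Tnfsf8 detected. The members were therefore chosen by their own counts of these genes, which are given below as description only.

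CD4 T cells recognize peptides on MHC class II through the T cell receptor with CD4 as coreceptor, and need a second signal through CD28 to become activated. Once activated they can take up helper programs, among them Th1 (T-bet, interferon-gamma), Th2 (GATA3, IL-4, IL-13), Th17 (IL-17) and follicular helper (BCL6, CXCR5), and they express receptors that restrain them, such as CTLA-4. In tumors they license dendritic cells and help CD8 T cells, and they share the tissue with regulatory T cells that carry Foxp3.

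4T1 is a BALB/c mammary carcinoma line, used here with a luciferase reporter (4T1-luc), and 200000 cells were implanted into the mammary fat pad of BALB/c females aged 6 to 8 weeks. The Vehicle library came from mice with p38 wild-type tumors given DPBS, and the p38i library from mice with the same tumors given the p38 inhibitor LY2228820 at 30 mg/kg by daily gavage for 10 days from day 4. The p38KO library came from mice bearing 1 clone, p38a-ko-H9, in which CRISPR-Cas9 had inactivated p38a, and the labels do not say whether these mice were gavaged. All tumors were collected on day 14, and each library pooled the tumors of 3 mice. The host T cells of the p38KO tumors were p38 wild type, so their Mapk14 (p38a) count checks no label: it was 14 in Vehicle, 20 in p38i and 25 in p38KO members.

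With 1 library per group there is no replicate and no test. Every interval below is an exact 95% interval that covers counting error only, and the group, its mice and its library cannot be told apart. The 98 Vehicle members had a median of 4159 UMIs and 441179 in all, the 127 p38i members a median of 3415 and 530042 in all, and the 124 p38KO members a median of 4232.5 and 585584 in all. Their median mitochondrial share was 3.00%, 3.04% and 3.06% in that order. Few barcodes were shared between libraries (5 to 9 for any pair, 4 or 5 among kept cells), and no member barcode was shared with a member of another library.

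Many members sat near the edge of the rule. A single Cd4 UMI carried 48 of 98 Vehicle members, 72 of 127 p38i members and 69 of 124 p38KO members, and the highest Cd4 count in a member was 5, 7 and 11. Just inside the rule, 38, 47 and 49 members had 1 of the 4 Ccl1-set genes, and just outside it 12, 12 and 34 cells had 2 of them. Another 10, 11 and 13 cells were left out for a single Foxp3 UMI. Members under 2000 UMIs numbered 3, 11 and 4, and 0, 5 and 1 cells met the transcript rule with fewer than 1500. T cells with neither Cd4 nor Cd8 detected numbered 109, 226 and 166, and some of these may be members whose Cd4 was not captured.

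Both label markers that the rule did not use were present. Cd28, the costimulatory receptor, was found in 69 of 98 Vehicle, 65 of 127 p38i and 84 of 124 p38KO members, and Tcf7, the transcription factor TCF-1 of naive and memory T cells, in 37, 59 and 39. After each cell was thinned to 1500 UMIs, Cd28 was present in 39.8%, 23.6% and 33.9% of members and in 0.0875%, 0.257% and 0.207% of granulocyte-like cells, which should lack it. Other T cells held Cd28 too: 27.8%, 30.3% and 20.5% of thinned Foxp3 cells and 33.3%, 30.0% and 22.9% of the Ccl1-Penk-Lgals7 set. The p38i members were below both of these groups. In CD8 T cells the Cd28 share was 24.1%, 14.8% and 10.5%. Tcf7 was present in 15.3%, 27.6% and 10.5% of thinned members, against 0 of 36 Vehicle, 1 of 33 p38i and 2 of 39 p38KO Foxp3 cells. In thinned CD8 T cells the Tcf7 share was 9.49%, 8.90% and 9.26%, the last near that of the p38KO members. The median depth of granulocyte-like cells before thinning (2498, 2259 and 2201 UMIs) was below that of the members. Thinning left out no cell.

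Conventional CD4 T cells made up 2.57% of kept cells in Vehicle (2.09 to 3.12%), 2.65% in p38i (2.21 to 3.14%) and 3.21% in p38KO (2.68 to 3.82%), and the 3 intervals overlapped. As a share of T cells they were 18.9%, 19.4% and 22.5%, again with overlapping intervals. Among T cells with Cd4 and no Cd8 they were 65.8% in Vehicle (57.6 to 73.3%), 70.6% in p38i (63.3 to 77.1%) and 58.8% in p38KO (51.8 to 65.5%). The lower value in p38KO stood beside a larger Ccl1-Penk-Lgals7 set, which took 22.7% of these cells there against 10.1% in Vehicle and 11.1% in p38i. CD8 T cells, given for scale, were 6.62%, 4.92% and 4.20% of kept cells.

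**Figure D1:**
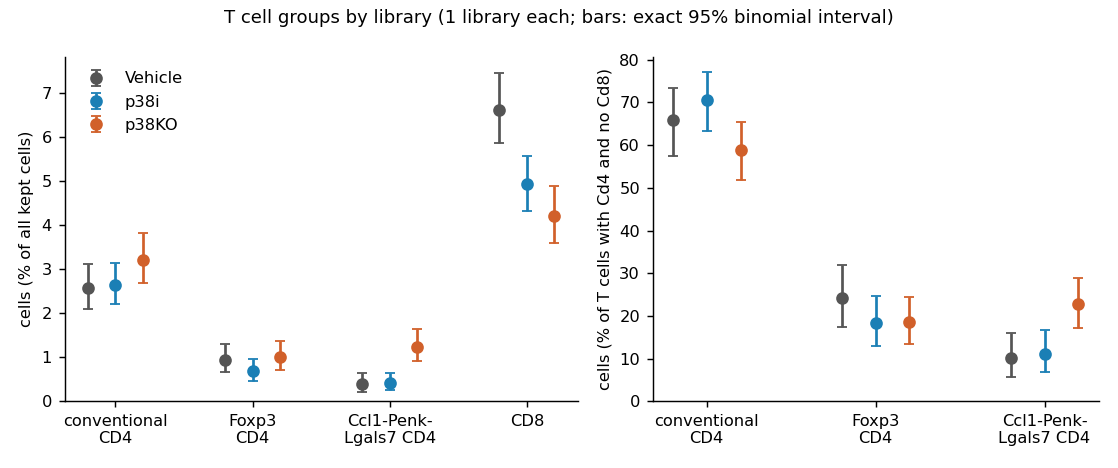
Share of each T cell group in each library, as percent of all kept cells (left) and as percent of T cells with Cd4 and no Cd8 (right); points are single libraries and bars exact 95% binomial intervals. Conventional CD4 T cells lay between 2.57% and 3.21% of kept cells with overlapping intervals, and the Ccl1-Penk-Lgals7 set was highest in p38KO.

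Members also carried transcripts of other leukocytes. S100a9, a granulocyte marker, was found in 65 of 98 Vehicle, 75 of 127 p38i and 55 of 124 p38KO members. Members with UMIs for 3 or more of 36 granulocyte, monocyte and macrophage, dendritic and B cell markers numbered 17 of 98 in Vehicle, 19 of 127 in p38i and 30 of 124 in p38KO, and they held 24.9%, 27.8% and 33.0% of the members' UMIs. The 10 granulocyte markers summed to 2480 CPM (counts scaled to 1e+06 summed counts of the members) in Vehicle, 2075 in p38i and 4997 in p38KO, led by S100a9 at 1553, 947 and 2787, and none of the 10 was at 0. The 13 monocyte and macrophage markers summed to 426, 1781 and 3916 CPM, with Apoe the most abundant over the 3 libraries at 40.8, 168 and 1696, with 2 markers at 0 in Vehicle and none in the others. The 12 dendritic cell markers summed to 1854, 1466 and 2567 CPM, led by Cd74, with Zbtb46, Clec9a and Ccl22 at 0 in every library. The 8 B cell markers summed to 22.7, 115 and 42.7 CPM. One cell held 91.7% of the dendritic marker counts of Vehicle, 69.5% of those of p38i and 68.1% of those of p38KO. Without the 66 marked members the granulocyte sums were 395, 530 and 640 CPM and the macrophage sums 311, 376 and 464 CPM. The part of doublets or free RNA in these counts was not tested, and the counts of genes called and of list genes called are given with and without these members.

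The lists of cells outside the rule were low. Markers of natural killer and invariant T cells summed to 11.3, 3.77 and 41.0 CPM, with Klra4, Klra7 and Klra8 at 0 throughout and Ncr1 the most abundant. Gamma-delta T cell markers summed to 72.5, 37.7 and 13.7 CPM, with Tcrg-C1 the most abundant and Sox13 at 0. Tumor epithelial and stromal markers summed to 63.5, 60.4 and 42.7 CPM, most of it Pecam1, with Krt14, Col1a1, Col3a1 and Sparc at 0. Mast cell and basophil markers summed to 43.1, 20.8 and 44.4 CPM, most of it Kit, with Mcpt8, Ms4a2 and Fcer1a at 0.

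The members were then set against the other T cells of the same library, that is the Foxp3, Ccl1-Penk-Lgals7 and CD8 T cells joined, of which CD8 T cells were the most numerous with 253, 236 and 162 cells. These groups differ by the rule, so the comparison is a description. Of 1405 genes at 100 CPM or more, 14 were at least 1.5-fold higher in the members in each of the 3 libraries (0.996%) and 31 were at least 1.5-fold lower (2.21%). The highest by the fixed ranking was Slamf6, a SLAM-family receptor kept by less differentiated T cells, at 245, 200 and 196 CPM in Vehicle, p38i and p38KO members. CD8 T cells held 75.0, 77.7 and 64.5 CPM of it and Foxp3 cells 152, 283 and 125 CPM, and the ratio to all other T cells was 2.13- to 3.05-fold. Cd5, a negative regulator of T cell receptor signaling, was 1.83- to 2.44-fold higher, and Slfn1, a schlafen gene of resting T cells, 1.97- to 2.14-fold. Klf2, the factor that drives egress receptors, was 1.76- to 2.21-fold higher, Icos, a costimulatory receptor of the CD28 family, 1.56- to 2.14-fold, and Nr3c1, the glucocorticoid receptor, 1.65- to 2.22-fold. Against the Foxp3 cells alone the order differed. Icos was at 431, 368 and 326 CPM in the members and at 1028, 888 and 703 CPM in Foxp3 cells, and Cd5 at 324, 302 and 336 CPM against 348, 377 and 406 CPM. The Ccl1-Penk-Lgals7 set held Cd5 at 267, 312 and 360 CPM and Icos at 396, 139 and 221 CPM. Klf2 was at 678, 494 and 350 CPM in the members and at 624, 299 and 268 CPM in Foxp3 cells. Itga4, the alpha-4 integrin chain, Stk38, a kinase of the NDR family, and Tecpr1, a factor in autophagy, were also among the 12 highest. Granulocyte-like cells held Slfn1 at 614, 461 and 645 CPM against 222, 258 and 248 in the members, Klf2 at 371, 362 and 400 CPM, Nr3c1 at 108, 105 and 120 and Stk38 at 96.4, 98.7 and 107, and Slamf6, Cd5 and Icos below 7 CPM. The part of granulocyte RNA in the first 4 was not tested. The other 3 were the MHC class II genes H2-Eb1, H2-Aa and Cd74, most of whose counts sat in 1 cell of each library. Tcf7 was 2.18- to 3.86-fold higher, and its level was 131, 175 and 99.0 CPM in members against 0, 39.3 and 16.7 in Foxp3 cells and 59.0, 51.0 and 63.5 in CD8 cells. Lef1, its partner in naive T cells, was 1.70- to 2.75-fold higher. When the rule for members was read on thinned cells the lowest log2 ratio over the 3 libraries was 0.20 for Klf2, 0.21 for Stk38, 0.26 for Itga4, 0.36 for Tecpr1 and 0.54 for Tcf7, all under 1.5-fold.

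The 12 lowest genes included granzymes and perforin. Gzma, a granzyme, was at 6.80, 3.77 and 6.83 CPM in the members against 194, 116 and 641 in CD8 T cells. Gzmf had no count in any member and 541, 67.0 and 30.3 CPM in CD8 T cells. Prf1, perforin, was at 9.07, 7.55 and 5.12 CPM against 353, 378 and 78.2. Ccl5, a chemokine of effector T cells, was 6.24- to 23.4-fold lower, and Nkg7, a granule protein, 4.31- to 11.1-fold lower. Gzmb was 3.07- to 9.74-fold lower than in the other T cells, whose highest level was in the Foxp3 cells (2123, 1933 and 648 CPM). The rest of the 12 were Jaml, Xcl1, Cst7, Ly6c2, Hopx and G0s2. Ctla4 stood between the groups, at 383, 92.4 and 88.8 CPM in members, 944, 668 and 443 in Foxp3 cells and 109, 35.8 and 24.4 in CD8 T cells.

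**Figure D2:**
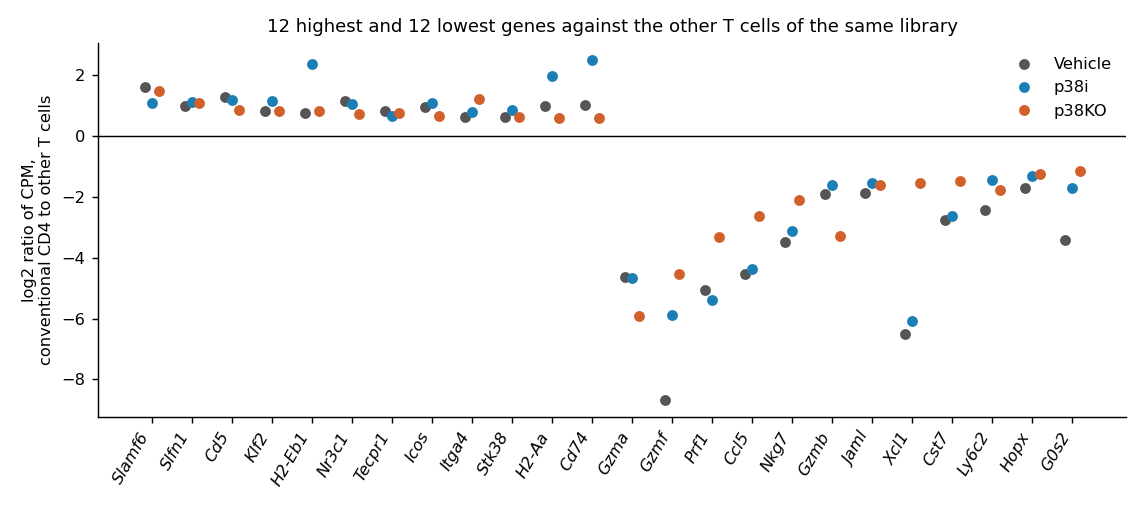
Log2 ratio of CPM in conventional CD4 T cells to that in the other T cells of the same library (vertical axis) for the 12 highest and 12 lowest genes by the fixed ranking (horizontal axis); each point is 1 library and the line at 0 marks equal levels. Prf1, Ccl5 and Nkg7 lie far below 0 in all 3 libraries, and Slamf6, Cd5 and Klf2 lie above it.

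Helper states were read as the share of thinned members with a UMI for any gene of a short list, and the lists overlap within a cell. Costimulatory TNF receptors (Tnfrsf4, Tnfrsf9 or Tnfrsf18, encoding OX40, 4-1BB and GITR) were the most common, in 77.6% of Vehicle members (68.0 to 85.4%), 63.0% of p38i members (54.0 to 71.4%) and 62.1% of p38KO members (52.9 to 70.7%), against 1.66 to 2.43% of granulocyte-like cells. Type 1 transcripts (Ifng, Tbx21 or Cxcr3) were in 20.4%, 28.3% and 20.2%, and inhibitory receptors (Pdcd1, Lag3 or Havcr2) in 17.3%, 13.4% and 19.4%, each with overlapping intervals. Treg-associated transcripts other than Foxp3 (Il2ra or Ikzf2) were in 17.3%, 18.9% and 17.7% of members and in 91.7%, 97.0% and 94.9% of Foxp3 cells. Cytotoxic transcripts (Gzmb, Gzmk or Prf1) were in 9.18%, 11.8% and 4.84%. The background in granulocyte-like cells was below 1% for type 1, Treg-associated and cytotoxic transcripts except cytotoxic in Vehicle (1.05%), and 1.71%, 2.57% and 3.32% for inhibitory receptors. Without thinning the TNF receptor share was 87.8%, 78.7% and 77.4%, the type 1 share 44.9%, 50.4% and 46.0%, the inhibitory share 30.6%, 26.0% and 37.9%, the Treg-associated share 29.6%, 28.3% and 33.9% and the cytotoxic share 21.4%, 16.5% and 11.3%. When the rule for members was also read on thinned cells the inhibitory share was 29.0%, 17.9% and 39.0%, the cytotoxic share 17.7%, 15.5% and 5.19% and the Treg-associated share 27.4%, 22.6% and 14.3%.

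Type 2 transcripts (Il4, Il5, Il13 or Il1rl1) were in 4.08%, 4.72% and 7.26% of thinned members and in 0.131%, 0.221% and 0.778% of granulocyte-like cells. The type 2 share of members was 6.12%, 7.09% and 12.9% without thinning. It was 8.06%, 4.76% and 7.79% when the rule for members was also read on thinned cells. Follicular transcripts (Cxcr5, Bcl6 or Il21) were in 2.04%, 0.787% and 1.61%, below the 7.87%, 5.29% and 8.81% of granulocyte-like cells. The part of background in the members' follicular counts was not tested.

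**Figure D3:**
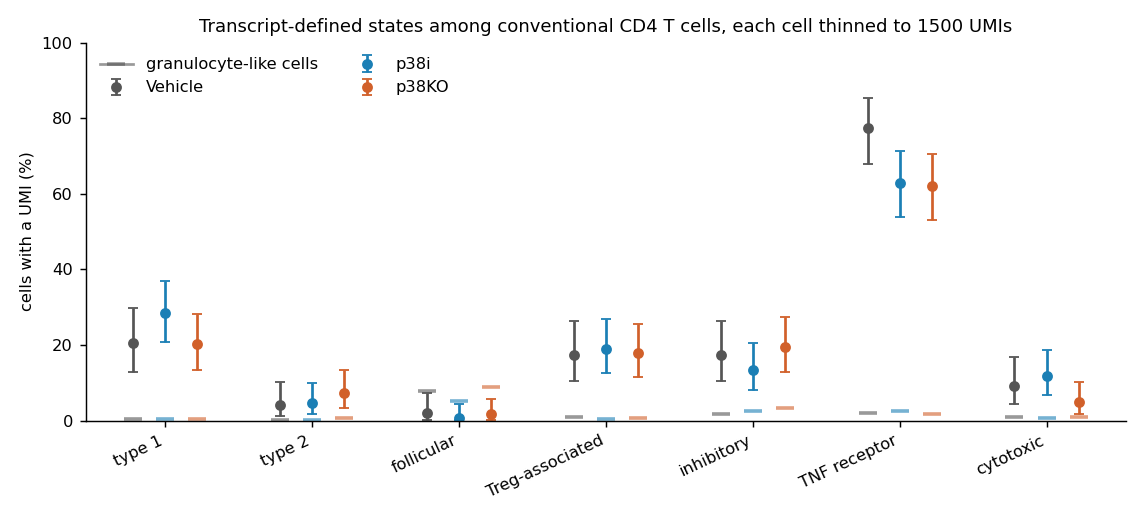
Percent of conventional CD4 T cells with a UMI for any gene of each list after thinning each cell to 1500 UMIs (points, with exact 95% binomial intervals), by library; short dashes give the same percent in granulocyte-like cells of that library as background. TNF receptor transcripts were the most common, at 77.6%, 63.0% and 62.1%, and the follicular list lay below its percent in granulocyte-like cells.

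The cytokine genes themselves were sparse. Ifng, the Th1 cytokine, had 3 counts in 3 Vehicle members, 47 counts in 9 p38i members, 37 of them in 1 cell, and 51 counts in 16 p38KO members, the 3 highest with 12, 12 and 10. The p38i members thus stood at a log2 ratio of 3.70 to Vehicle (2.07 to 6.03) and those of p38KO at 3.68 (2.05 to 6.00), and without the cell with the most counts in each library it was 2.06 and 3.88. When the rule for members was read on thinned cells it was 0.65 and 3.03. Tnf had 6, 10 and 31 counts in 6, 5 and 20 cells. Il2, the T cell growth factor, had 5, 2 and 19 counts, with 12 of the 19 in 1 p38KO cell, and Csf2, encoding GM-CSF, had 1, 55 and 3, with 51 of the 55 in 1 p38i cell. Il4 had 1, 5 and 3 counts, Il13 had 0, 7 and 9, Il21 had 7, 10 and 0, Il10 had 0, 0 and 2, Il17a had 0, 0 and 1 and Il5 had none. Cd40lg, encoding the ligand by which helper cells engage CD40, had 58, 40 and 55 counts in 34, 29 and 35 cells, so it was spread over more members than any of these cytokines. Among the lineage factors Gata3 (60, 66 and 109 counts) and Maf (231, 208 and 286) were well above Tbx21 (14, 15 and 14) and Bcl6 (1, 1 and 2).

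The first comparison asked how these cells differed when p38 was inhibited in the whole animal. In the following a gene is called higher or lower when its CPM ratio was at least 1.5-fold, its counting interval left out 1 and both libraries together held at least 50 counts. In p38i against Vehicle 201 of 2876 genes were called higher (6.99%) and 100 lower (3.48%), with a median log2 ratio of 0.02 over all of them. In p38KO against Vehicle, which shares the Vehicle library, 202 of 2993 were higher (6.75%) and 116 lower (3.88%). Without the members that carried markers of other classes, the calls were 79 of 2032 higher (3.89%) and 76 lower (3.74%) in p38i, and 131 of 2105 higher (6.22%) and 80 lower (3.8%) in p38KO.

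Ctla4, Tsc22d3, Cd69 and Zfp36l2 were the 4 genes among the 8 largest falls of both comparisons with Vehicle. Other genes, given below, ranked above some of them in each comparison. Ctla4, which competes with CD28 for its ligands, had 169 counts (383 CPM) in Vehicle, 49 counts (92.4 CPM) in p38i and 52 counts (88.8 CPM) in p38KO. This gave log2 ratios to Vehicle of -2.05 (-2.54 to -1.58) for p38i and -2.11 (-2.59 to -1.65) for p38KO. It was found in 39 of 98, 18 of 127 and 16 of 124 members, so more Vehicle members held it, although 1 Vehicle cell held 53 of the counts. After thinning it was in 25.5%, 10.2% and 4.84% of members against 0.0735 to 0.175% of granulocyte-like cells. Without the member with the most counts in each library the log2 ratios were -1.99 and -2.10. Among members with no Il2ra and no Ikzf2 UMI the ratio was -4.38 in p38i and -2.26 in p38KO. When the rule for members was instead read on thinned cells, it was -0.77 in p38i and -2.31 in p38KO, so the size of the p38i value depended on which cells were taken.

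Tsc22d3, the glucocorticoid-induced leucine zipper that restrains AP-1 and NF-kappa-B, had 154, 47 and 51 counts in 56, 33 and 37 members of Vehicle, p38i and p38KO. Its level was 349, 88.7 and 87.1 CPM, with log2 ratios to Vehicle of -1.98 (-2.48 to -1.50) and -2.00 (-2.49 to -1.54). No member held more than 13 of these counts. Cd69, the early activation marker that retains T cells in tissue, was at 247, 64.1 and 75.1 CPM, with ratios of -1.95 (-2.55 to -1.38) and -1.72 (-2.26 to -1.20). Zfp36l2, an RNA-binding protein that promotes decay of AU-rich mRNAs, was at 884, 383 and 285 CPM, with ratios of -1.21 (-1.46 to -0.96) and -1.63 (-1.90 to -1.37). In the plot of these falls the Vehicle interval of each of the 4 genes lies above both others, and with all members none of the 4 passed the fold between p38KO and p38i. Without the members that carried markers of other classes all 4 were still called lower in both, with log2 ratios between -2.23 and -1.20.

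In the mouse build GRCm38 (mm10) Ctla4 lies on chr1:60887000-60915832 (plus strand), Tsc22d3 on chrX:140539528-140600659 (minus), Cd69 on chr6:129267325-129275436 (minus) and Zfp36l2 on chr17:84183931-84187947 (minus), all protein-coding genes by the GENCODE annotation. RefSeq promoter windows (GRCm38.p6, from before to just after the annotated start) were matched by symbol for Ctla4 and Tsc22d3, with 1 window for Ctla4 and 3 for Tsc22d3. Of the 4 genes among the 8 largest falls of both comparisons, these 2 had a window in the table and are shown for that reason, with capitals for matches on either strand to 4 motifs: AP-1 (TGANTCA), the core of the cAMP response element (TGACG), the NFAT core (GGAAA) and FOXO (GTAAACA). The Ctla4 window is chr1:60908775-60909074 on the plus strand and the Tsc22d3 windows shown are chrX:140542619-140542918 and chrX:140548522-140548821 on the minus strand.
Ctla4: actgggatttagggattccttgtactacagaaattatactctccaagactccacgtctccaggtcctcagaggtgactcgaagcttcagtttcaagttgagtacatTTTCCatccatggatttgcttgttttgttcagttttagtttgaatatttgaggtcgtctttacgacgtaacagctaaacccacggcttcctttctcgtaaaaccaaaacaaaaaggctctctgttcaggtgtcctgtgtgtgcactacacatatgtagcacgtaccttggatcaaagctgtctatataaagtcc
Tsc22d3, first window: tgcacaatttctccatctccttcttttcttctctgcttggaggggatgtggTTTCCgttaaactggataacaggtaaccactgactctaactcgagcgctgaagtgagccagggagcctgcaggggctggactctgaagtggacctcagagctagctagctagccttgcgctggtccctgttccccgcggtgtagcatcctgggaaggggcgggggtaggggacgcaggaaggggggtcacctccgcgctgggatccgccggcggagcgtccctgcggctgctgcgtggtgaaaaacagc
Tsc22d3, second window: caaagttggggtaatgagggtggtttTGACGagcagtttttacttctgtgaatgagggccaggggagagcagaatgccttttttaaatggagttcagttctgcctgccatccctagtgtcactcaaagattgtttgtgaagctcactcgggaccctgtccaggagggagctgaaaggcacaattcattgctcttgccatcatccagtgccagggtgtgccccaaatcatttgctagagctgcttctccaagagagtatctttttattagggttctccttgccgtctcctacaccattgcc
The NFAT core occurred once in the Ctla4 window and once in the first Tsc22d3 window, and the cAMP response core once in the second. The remaining Tsc22d3 window, chrX:140600473-140600772, held none of the 4. Among 32851 RefSeq promoter windows, 61.3% held the NFAT core, 20.8% the cAMP response core, 7.81% the AP-1 letters and 3.65% the FOXO letters, so none of these matches is unusual for a window of 300 bases.

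The same 4 genes were measured in the other cells of each library. Zfp36l2 was below Vehicle in both in every group: its log2 ratios were -1.89 and -1.80 in Foxp3 cells, -1.39 and -2.12 in the Ccl1-Penk-Lgals7 set, -1.48 and -1.11 in CD8 T cells and -0.55 and -0.44 in granulocyte-like cells, all with intervals below 0 and the last 2 values under 1.5-fold. Tsc22d3 was lower in CD8 T cells (-1.18 and -1.46) and granulocyte-like cells (-0.94 and -1.22), and the intervals in Foxp3 cells and the Ccl1-Penk-Lgals7 set included 0. Ctla4 was below Vehicle in Foxp3 cells (-0.50 and -1.09), the Ccl1-Penk-Lgals7 set (-0.89 and -1.01) and CD8 T cells (-1.61 and -2.16), with intervals below 0. Cd69 was lower in the Ccl1-Penk-Lgals7 set too (-1.55, -2.79 to -0.41, and -1.37, -2.24 to -0.49), and in Foxp3 cells it was at -0.75 and 0.09 with intervals that include 0. Cd69 in CD8 T cells was lower in p38i (-1.68) and at 0.16 (-0.11 to 0.43) in p38KO, whereas the members were at -1.72 there. The difference between cell groups was not tested. What these shared falls owe to a difference between the libraries as a whole was not tested.

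**Figure D4:**
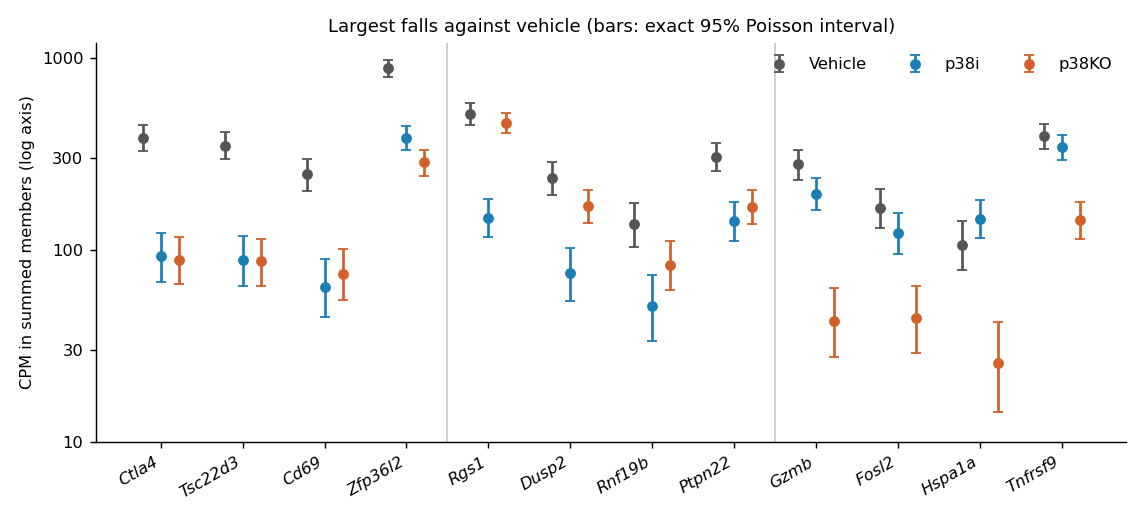
CPM of the 12 genes among the 8 largest falls of either comparison with Vehicle (vertical log axis, horizontal axis gene) in summed members of each library, with exact 95% Poisson intervals. The left group fell in both, the middle group ranked only in p38i and the right group only in p38KO; Ctla4, Tsc22d3 and Cd69 are near 90 CPM or below in both p38i and p38KO and near 250 CPM or above in Vehicle.

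Other falls ranked in 1 comparison. Against Vehicle, p38i members were lower in Rgs1, a regulator of G protein signaling in tissue T cells (512, 147 and 458 CPM in Vehicle, p38i and p38KO), with a log2 ratio of -1.80 (-2.19 to -1.42). Dusp2, a phosphatase of MAP kinases, was at 236, 75.5 and 169 CPM, with -1.64 (-2.21 to -1.10) in p38i. Rnf19b, an E3 ubiquitin ligase, was at 136, 50.9 and 83.7 CPM, and Ptpn22, a phosphatase that damps T cell receptor signaling, at 306, 141 and 167 CPM. The p38KO value of Rgs1 was within 1.5-fold of Vehicle, at -0.16 (-0.42 to 0.10) with all members, that of Dusp2 was -0.48 (-0.89 to -0.07), and Rnf19b and Ptpn22 were called lower in p38KO too. For Rgs1 it was -0.82 when the rule for members was read on thinned cells, past 1.5-fold, and -0.52 without the marked members. The Dusp2 value in p38KO was -0.84 without the member with the most counts in each library and -0.85 without the marked members, where it was called lower as in p38i (-1.26). In the other cells Rgs1 was lower in both, with intervals below 0: its log2 ratios in p38i and p38KO were -1.37 and -0.72 in Foxp3 cells, -0.62 and -0.66 in the Ccl1-Penk-Lgals7 set, -1.69 and -1.29 in CD8 T cells and -1.83 and -0.78 in granulocyte-like cells. Dusp2 was at -1.55 and -1.08 in Foxp3 cells and -1.14 and -0.75 in CD8 T cells, with intervals below 0. In the Ccl1-Penk-Lgals7 set Dusp2 was at -0.69 (-1.40 to 0.01) and -1.21 (-1.82 to -0.58). In granulocyte-like cells it was at -0.32 (-0.70 to 0.05) and 0.90 (0.56 to 1.24).

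In p38KO members Gzmb, granzyme B, was lowest, at 25 counts in 10 members against 123 in 14 Vehicle members and 104 in 16 p38i members. Its log2 ratio to Vehicle was -2.71 (-3.39 to -2.08), and it was -1.07 among members with no Il2ra and no Ikzf2. Gzmb in p38KO was also lower in Foxp3 cells (-1.71), CD8 T cells (-1.20) and granulocyte-like cells (-1.46). In the Ccl1-Penk-Lgals7 set it was higher, with 0 counts in Vehicle and 62 in p38KO. Fosl2, an AP-1 subunit, was at 165, 123 and 44.4 CPM, a ratio of -1.90 (-2.60 to -1.23) in p38KO. Its p38KO ratio was -1.04 (-2.01 to -0.10) in Foxp3 cells and -0.90 (-1.49 to -0.34) in CD8 T cells. It was -0.66 (-1.97 to 0.77) in the Ccl1-Penk-Lgals7 set and 0.19 (0.11 to 0.27) in granulocyte-like cells. Tnfrsf9, the receptor 4-1BB, was at 390, 343 and 143 CPM, a ratio of -1.44 (-1.84 to -1.06). In p38KO it was also lower in Foxp3 cells (-0.95), the Ccl1-Penk-Lgals7 set (-0.63), CD8 T cells (-1.86) and granulocyte-like cells (-0.73). Hspa1a, an inducible heat shock protein, was at 107, 145 and 25.6 CPM, with 49 of its 77 p38i counts in 1 cell. In p38KO Hspa1a was also lower in Foxp3 cells (-1.53), the Ccl1-Penk-Lgals7 set (-1.83) and granulocyte-like cells (-2.22). In CD8 T cells it was at 0.38 (-0.32 to 1.07). What these falls owe to a difference between the libraries as a whole was not tested. For Gzmb, Fosl2 and Tnfrsf9 the p38i members stayed closer to Vehicle, with ratios of -0.51, -0.43 and -0.18. Some alternatives put p38i past 1.5-fold too. When the rule for members was read on thinned cells Gzmb was at -0.93 in p38i and -2.92 in p38KO. Fosl2 was at -0.71 and -3.00 without the marked members, and at -0.68 and -2.53 among members with no Il2ra and no Ikzf2.

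Large parts of the counts behind the largest rises against Vehicle sat in 1 member, although several of these genes were found in many members. In p38i the highest included Ccl24, Slpi, Fn1, Tgfbi, Lyz2 and Fcgr3, genes of macrophages and granulocytes. Slpi, a protease inhibitor of granulocytes, had 705 counts, 688 of them in 1 member. Ccl24, an eotaxin, had 407 counts in 6 members, 284 in 1 of them, against none in Vehicle, which makes it at least 113-fold higher taking 3 counts as the limit in the Vehicle members. Lyz2, lysozyme, had 416 counts in 21 members, 229 in 1. Without the 19 marked members Ccl24 had no count and Slpi had 7.

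In p38KO the 8 highest were Apoe, Ccl8, Ccl4, C1qa, Cx3cr1, Lyz2, C1qb and C1qc. Apoe, a lipoprotein of macrophages, had 18 counts in 13 Vehicle members, 89 in 16 p38i members and 993 in 51 p38KO members, 562 of them in 1 cell. C1qa, a complement component of macrophages, had 10, 7 and 339 counts, 191 of the last in 1 cell. Ccl8 (104 counts) and Cx3cr1 (62 counts) had none in Vehicle, at least 26.1-fold and 15.6-fold higher by the same limit. Without the marked members Apoe kept 9, 8 and 45 counts, a log2 ratio of 2.08 (1.03 to 3.30) in p38KO. Without the member with the most counts in each library the rises named for a comparison kept their direction in that comparison. Slpi was then at 1.82 and Lyz2 at 3.58 in p38i, and Apoe at 4.54 and C1qa at 3.63 in p38KO. Ccl24, named for p38i, turned below 0 in p38KO. Without the marked members Ccl24 in p38i and C1qb in p38KO turned below 0. Lyz2 was then at 0.25 in p38i and 1.80 in p38KO, and C1qa at 1.56 in p38KO. When the rule for members was read on thinned cells Slpi was at 0.17 and Lyz2 at 2.20 in p38i. In p38KO C1qa was then at 0.14 and Apoe at 2.03. Apoe was also higher in p38KO in Foxp3 cells (6.89, 5.76 to 8.34), CD8 T cells (4.31), the Ccl1-Penk-Lgals7 set (1.34, 0.11 to 2.85) and granulocyte-like cells (0.97), beside 5.38 in the members.

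**Figure D5:**
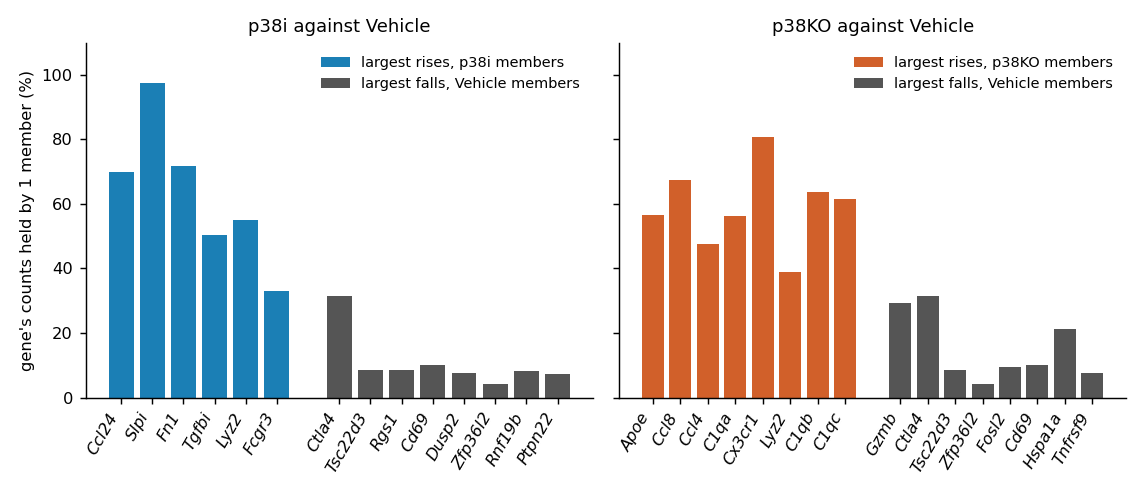
Percent of a gene's counts that sat in a single member (vertical axis) for genes among the 8 largest rises, read in the treated library, and the 8 largest falls, read in Vehicle, of p38i (left) and p38KO (right) against Vehicle. Among the rises 1 member held 97.6% of Slpi and 80.6% of Cx3cr1 counts, and among the falls between 4.10% for Zfp36l2 and 31.4% for Ctla4.

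The genes higher than in Vehicle once the marked members were set aside were ranked the same way, a ranking chosen after the values were seen. In p38i they were led by Csf2, which 1 cell carried, and by Ifitm1, an interferon-induced membrane protein, with 135 counts over the 81 remaining Vehicle members and 352 over the 108 of p38i, a log2 ratio of 1.17 (0.88 to 1.47). Among all members it was found in 17, 39 and 40 cells of Vehicle, p38i and p38KO, with a log2 ratio of 0.58 in p38i, just under 1.5-fold. S100a6 and S100a4, calcium-binding proteins of activated and migrating cells, were also among the 8, with ratios of 1.00 (0.72 to 1.28) and 0.77 (0.51 to 1.05). With all members S100a6 and S100a4 were at 0.88 and 0.53, and S100a6 was at 0.41, under 1.5-fold, when CPM was averaged over cells. Epsti1, an interferon-induced gene, was at 1.25 (0.49 to 2.07). Ccl5 was at 1.30 (0.62 to 2.02) there and at -0.07 with all members. Nab1 and Phip completed the 8, with 1.65 and 1.28. Granulocyte-like cells held Ifitm1 at 6551, 7359 and 3873 CPM and the members at 793, 1189 and 1498 CPM, and the part of free RNA in its counts was not tested.

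In p38KO the same ranking was led by Spp1, osteopontin, at 8 counts in Vehicle and 62 in p38KO (2.71, 1.64 to 3.98), and by Ifitm1 (1.89, 1.62 to 2.17, and 0.92 with all members). Receptors shared with natural killer cells were also among the 8: Klrc1, encoding NKG2A, with 2.06 (1.21 to 3.00), and Klrd1, encoding its partner CD94, with 1.43 (0.98 to 1.89). Ctsw, a cathepsin of cytotoxic lymphocytes, had 50, 77 and 178 counts in 26, 36 and 60 of all members, a ratio of 1.42 (0.96 to 1.91). Its p38KO ratio was also above 0 with its interval in each of the other groups. It was 1.68 in Foxp3 cells, 2.08 in the Ccl1-Penk-Lgals7 set, 0.84 in granulocyte-like cells and, just under 1.5-fold, 0.58 in CD8 T cells. Fgl2, a fibrinogen-like immune regulator, was at 2.19, and Serpina3g, a serine protease inhibitor of T cells, at 2.03. Apoe completed the 8. Pmepa1, a target of TGF-beta signaling named after its values were seen, was at 224, 251 and 543 CPM in all members, a ratio of 1.28 (0.95 to 1.62), and its p38KO ratio was above 0 with its interval in each of the other groups, at 2.10 in CD8 T cells and 1.46 in granulocyte-like cells and, under 1.5-fold, at 0.57 in the Ccl1-Penk-Lgals7 set and 0.47 in Foxp3 cells. The 8 NK and invariant T cell markers summed to 11.3, 3.77 and 41.0 CPM in Vehicle, p38i and p38KO, and to 9.06, 5.23 and 56.1 CPM without the marked members, led by Ncr1 at 15.4 CPM in p38KO, with Klra4, Klra7 and Klra8 at 0 in every library. Their sum was highest in p38KO beside these rises, and its part in them was not tested.

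The list genes were read against these background percents, first with all members and then without the marked ones. Of 11 tested naive and central memory genes none was called in p38i, and those lower in p38KO included Ccr7 (the lymph node homing receptor; 129, 96.2 and 59.8 CPM) and Klf2 (678, 494 and 350 CPM). All 11 had a log2 ratio below 0 in p38KO, with a median of -0.41 against 0.03 over all genes tested. Klf2 in p38KO was at -0.95 in the members, -1.22 in Foxp3 cells, -1.57 in the Ccl1-Penk-Lgals7 set and -0.69 in CD8 T cells. In granulocyte-like cells it was at 0.11 (0.03 to 0.18). In p38i Klf2 was at -0.46 in the members, -1.06 in Foxp3 cells and -0.70 in CD8 T cells. In the Ccl1-Penk-Lgals7 set it was then at -0.62 (-1.81 to 0.56). With the marked members left out, Cd27 was the single call in p38i, lower, and Ccr7, Klf2 and Il7r, the receptor of IL-7, were lower in p38KO, 3 of 10 tested. Resting and quiescence regulators had 3 of 9 lower in each comparison, Tsc22d3 and Txnip in both, Btg2 in p38i and Foxo1 in p38KO. Txnip, a brake on glucose uptake, was at 585, 311 and 324 CPM (log2 ratios of -0.91 and -0.85). The medians of that list were -0.57 and -0.46. The calls of single comparisons changed without the marked members: Btg2 was then lower in both, Foxo1 was not called, and Btg1 and Klf6 were also lower in p38i, which made 5 of 9 lower in p38i and 3 of 9 in p38KO.

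Of 15 T cell receptor and proximal signaling genes only Ptpn22 was called, lower in both, and Trbc1, Trbc2 and Lck stayed within 1.5-fold. Ptpn22 was again lower in both without the marked members, and Skap1, an adaptor protein of T cells, was higher in p38KO. Costimulatory receptors had 3 of 10 lower in p38i, Cd28 (374, 198 and 287 CPM; -0.92, -1.28 to -0.56), Cd40lg and Tnfrsf4, and 2 lower in p38KO, Tnfrsf4 and Tnfrsf9. When the rule for members was read on thinned cells Cd28 was at -0.31 in p38i, within 1.5-fold of Vehicle. Cd44 was called higher in p38i with all members (0.69) and was at 0.04 without the marked ones. Without them Cd27 was lower in p38i besides Cd28, Cd40lg and Tnfrsf4, and the p38KO calls were again Tnfrsf4 and Tnfrsf9. Inhibitory receptors had Ctla4 lower as 1 of 3 tested in p38i and 1 of 5 in p38KO, while Pdcd1, encoding PD-1, was at 111, 96.2 and 135 CPM and Lag3 at 56.7, 37.7 and 63.2 CPM. Activation and immediate-early genes had 3 of 11 lower in each, Cd69 and Dusp1 in both, Dusp2 in p38i and Fos in p38KO, with medians of -0.46 and -0.39. Once the marked members were left out, 8 genes of this list held enough counts to be tested, against 11 before. Cd69, Dusp2 and Jun, an AP-1 subunit, were then lower in both, 4 of 8 in p38i with Nfkbia and 3 of 8 in p38KO. Neither Dusp1 nor Fos was called, and a gene under the minimum count cannot be called whatever its ratio. The calls that differed between p38i and p38KO thus changed, and what the change owes to the lower counts was not tested. Inhibitory receptors again had Ctla4 lower in both without the marked members, of 2 tested.

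Among Th1 and type 1 effector genes 1 of 10 was higher in p38i (Ifng) and 1 lower (Stat4). In p38KO 4 of 10 were higher, Ifng, Ccl5, Nkg7 and Cxcr6, and 2 lower, Cxcr3 and Stat4. Without the marked members the p38i calls included Ccl5 and Nkg7 higher, with Stat4 not called and Ifng at 4.32 but, with 2 and 46 counts, under the minimum for a call, and the p38KO calls were Nkg7 and Cxcr6 higher and Stat4 and Il18r1 lower. Cxcr6, a chemokine receptor of tissue-resident T cells, was at 351 CPM in 39 Vehicle members, 296 CPM in 44 p38i members and 651 CPM in 55 p38KO members, a ratio of 0.89 (0.62 to 1.17) in p38KO. Its p38KO ratio was 1.03 (0.04 to 2.12) in Foxp3 cells and 0.89 (0.53 to 1.27) in the Ccl1-Penk-Lgals7 set, and 0.41 (0.29 to 0.53) in CD8 T cells, under 1.5-fold. Chemokine receptors and egress genes had, besides Cxcr6, Ccr7, Cxcr3, Cxcr4 and Itgb1 lower in p38KO and Ccr2 higher and Cxcr4 lower in p38i, of 12 tested in each. The p38i calls were again Ccr2 and Cxcr4 without the marked members, and in p38KO Cxcr6 and Itga4 were higher and Ccr7, Cxcr4 and Itgb1 lower, of 11 tested in each. Cytokine receptors had 1 of 12 higher in p38i, Il6ra, and 1 of 11 in p38KO, Il2rg, the common gamma chain. None of 8 was called in p38i without the marked members, and in p38KO Il2rg was higher and Il7r and Il18r1 lower, of 8.

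Th2, Th17 and follicular lists held few testable genes. None of 3 Th2 genes was called in either comparison, nor was the 1 tested without the marked members. Rora, a nuclear receptor shared by Th17 and tissue T cells, was lower in both (204, 132 and 123 CPM) as 1 of 3 and 1 of 2 Th17 genes tested. Rora was called lower in both without the marked members as well. Il6ra was the 1 of 3 follicular genes called, higher in p38i, and was not called without the marked members. Treg-associated genes other than Foxp3 had Il2ra lower in both, as 1 of 5 and 1 of 7, and Ikzf4 (31.7, 37.7 and 108 CPM) and Nrp1 (40.8, 37.7 and 83.7 CPM) higher in p38KO. Ikzf4 in p38KO was the single call of that list without the marked members, of 3 tested in p38i and 4 in p38KO. Cytotoxic genes had none of 5 called in p38i, and in p38KO Klrd1 and Ctsw were higher and Gzmb lower. After leaving out the marked members Ctsw was higher in p38i, 1 of 4, and Klrk1 was also higher in p38KO, where 3 of 5 were higher and Gzmb was lower.

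The p38 pathway and mRNA decay list had Zfp36l2 and Dusp1, a phosphatase of p38, lower in both, as 2 of 10 tested in p38i and 2 of 11 in p38KO. In p38KO 4 of the 11 were higher: Mapkapk2 (74.8, 73.6 and 138 CPM) and Mapkapk3 (47.6, 43.4 and 95.6 CPM), kinases that p38 activates, Zfp36, encoding tristetraprolin, and Gadd45b. Without the marked members Zfp36l2 was the single call of the list in both comparisons, of 3 and 5 tested.

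The direct comparison of p38KO with p38i did not use the Vehicle library. Of 3310 genes 150 were called higher in p38KO (4.53%) and 181 lower (5.47%), and without the marked members 86 of 2273 were higher (3.78%) and 78 lower (3.43%). Among the largest differences C1qb, C1qa, Ccl8, C1qc, Ccl4, Apoe, Cx3cr1 and Ccl12 were higher in p38KO, and those lower included Slpi, F10, Ccl24, Csf2, Sdc4, Tgm2 and Fn1. Of these, Sdc4, Tgm2 and Fn1 turned to higher in p38KO without the marked members. Csf2 turned to higher and Ccl4 to lower when the rule for members was read on thinned cells. Without the marked members the ranking of genes higher in p38KO was led by Spp1, Apoe and Il1b, genes that myeloid cells express. Klrc1 (1.90, 1.14 to 2.74), Ptms, encoding parathymosin, Pmepa1 (1.17, 0.82 to 1.52), Rgs1 (1.20, 0.77 to 1.63) and Ikzf4, encoding the Ikaros-family factor Eos (1.58, 0.71 to 2.53), followed.

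Lower in p38KO than in p38i, once the marked members were set aside, were Csf2, Gzmb (-2.27, -3.25 to -1.39), Fosl2 (-2.29, -3.51 to -1.24) and Crem, a repressor of cAMP-responsive genes (-1.44, -2.03 to -0.88), followed by Ccl5, Psma5, Sh3bp5 and Tmem71. With all members none of 13 naive and central memory genes was higher in p38KO, and those lower included Ccr7, Lef1 and Tcf7. Among the unmarked members 5 of 10 were lower, these 3 with S1pr1 and Satb1. Tcf7 had 93 counts in p38i and 58 in p38KO, a log2 ratio of -0.82 (-1.32 to -0.34). Cxcr6 was 1.14 (0.86 to 1.41) higher on the log2 scale. Ctla4, Tsc22d3 and Cd69 had ratios of -0.06, -0.03 and 0.23 between p38KO and p38i, all with intervals that include 0. These depended on which cells were taken: Ctla4 was at -1.54 when the rule for members was read on thinned cells and at 2.12 among members with no Il2ra and no Ikzf2 UMI, and under the thinned rule Tsc22d3 was at -0.94, Zfp36l2 at -0.69 and Cd69 at -0.27.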

How the data were processed

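CD45+ 7AAD- cells were sorted from pooled 4T1 tumors and sequenced by droplet 3' single-cell RNA-seq. The authors deposited raw UMI counts per gene and cell for 32285 genes, 1 matrix per library, written by Cell Ranger 6.0.0 per the file headers on mm10, and the submitters' processing notes name R 4.2.1 and Seurat 5. Counts were summed over members of a library and given as CPM, with exact Poisson intervals, exact Clopper-Pearson intervals for shares and conditional binomial intervals for ratios. A count of 0 entered a ratio as 0.5. A limit for a count of 0 used 3 counts over the group. Cells were thinned to 1500 UMIs without replacement where shares with a UMI were compared. No doublet caller was run, and members with 3 or more of 36 markers of other classes were left out as an alternative. Granulocyte-like cells had at least 5 of 10 granulocyte markers.

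The members and the 29 gene lists were chosen with earlier results of these data known. Named genes were the 8 largest rises and falls of each comparison, ranked by the interval bound nearest to no change among genes with at least 50 counts over both libraries and 100 CPM in 1, and the 12 highest and lowest against the other T cells. Mitochondrial, ribosomal, receptor segment and rule genes were left out of these rankings, and a few genes and the lists of states that held them are not reported here. Lists covered all their measured members, except 3 genes that could not be matched to a single identifier. Rankings without the marked members were added after seeing the data. Scripts were tested on simulated data and run in Python 3.11.15 with numpy 2.4.6, scipy 1.17.1, pandas 2.3.3 and matplotlib 3.10.9.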

Additional observations from a re-analysis of the deposited data

Results flagged for a closer look

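S100a9, a calcium-binding protein that granulocytes make in large amounts, moved in opposite directions against the shared Vehicle library: its log2 ratio was -0.71 in p38i and 0.84 in p38KO, and the difference between these effects was not tested. It had 685 counts in 65 Vehicle members, 502 in 75 p38i members and 1632 in 55 p38KO members, with 436, 194 and 504 of them in 1 cell each. Without the members that carried markers of other classes 87, 106 and 142 counts were left, with log2 ratios of 0.08 and 0.46, and neither passed the fold.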

How the results depend on the processing

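No paired analysis was possible because each group has 1 library. Of 99 named gene ratios none left its counting interval under scaling by median ratios, 49 did and 4 reversed when the rule was read on thinned cells, 36 did and 11 reversed without the marked members, 22 did without members with Il2ra or Ikzf2, 15 did and 1 reversed without the member with the most counts, and when CPM was averaged over cells 31 did and 62 did not. Reading the rule on thinned cells gave shares of 1.62%, 1.75% and 1.995% of kept cells in Vehicle, p38i and p38KO, with 62, 84 and 77 members. No cell filter gave 2.08% in p38i and 2.40% in p38KO, and leaving out the marked members 2.44% in p38KO. Counts of genes called higher and lower in p38i against Vehicle were 354 and 162 with a minimum of 20 counts and 479 and 234 with none. The genes higher in p38KO against Vehicle were 350 and then 476, the lower ones 193 and then 250, and those in p38KO against p38i 263 and then 341 higher and 293 and then 383 lower. Thinning the rule gave 87 higher in p38i against Vehicle, 96 lower in p38KO against p38i and 23 genes above the other T cells. Averaging CPM over cells gave 171 lower in p38i and 319 higher and 192 lower in p38KO against Vehicle, and 235 higher against p38i. Leaving out the marked members gave 79 higher in p38i and 131 in p38KO against Vehicle, and 86 higher and 78 lower between them. With Ccr2, Ly6c2, G0s2 and Il1r2 not counted as markers, an alternative chosen after seeing the data, these were 71, 128, 89 and 86.

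The called log2 ratios that turned direction were the following. In p38i against Vehicle, leaving out the marked members, under the first and second marker set, gave Apoe -0.38 and -0.37, F10 -1.21 and -1.08, Ccl24 and Sdc4 each -0.21 and -0.080, and Tgm2 -0.79 and -0.66. Fn1 was -0.66 under the second. In p38KO against Vehicle it gave C1qb -0.98 and -1.01 and Ccl24 -0.24 and -0.28. In p38KO against p38i it gave Fn1 1.55 and 1.61, Sdc4 2.29 and 1.80, Tgfbi 0.96 and 1.12, and Tgm2 1.29 and 1.12. Thinning the rule reversed Csf2 in p38i (-3.67) and in p38KO against p38i (0.36), Ccl24 in p38KO (-0.41) and Ccl4 in p38KO against p38i (-1.14). Without its top cell Ccl24 in p38KO was -0.41. Against the other T cells the thinned rule gave nearest ratios of -1.22 for H2-Eb1, -1.70 for H2-Aa, -1.18 for Cd74 and 0.92 for G0s2. The cause of these changes was not tested beyond the cells left out. With 98 to 127 members and a median Cd4 count of 1 or 2, cells whose Cd4, Foxp3 or Cd8 went uncaptured are sorted wrongly at a rate these data do not give.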

Other observations

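Further gene lists were counted the same way, with all members and without those that carried markers of other classes. Over all genes tested against Vehicle, 6.99% were called higher and 3.48% lower in p38i, and 6.75% and 3.88% in p38KO. Without the marked members these shares were 3.89% and 3.74% in p38i, and 6.22% and 3.8% in p38KO. Of the type I interferon response genes, none of 15 tested was called in p38i and 3 of 16 were higher in p38KO against Vehicle: Ifit1 (54.4, 83.0 and 102 CPM in Vehicle, p38i and p38KO), Zbp1, a sensor of unusual nucleic acids (102, 153 and 183 CPM), and Slfn8. All 16 had a log2 ratio above 0 in p38KO, with a median of 0.44 against 0.03 over all genes tested, and the median in p38i was 0.26 against 0.02. The medians were 0.26 in p38KO and 0.21 in p38i without the marked members, and Ifit1, Zbp1 and Ifi35 were higher in p38KO, 3 of 14. Of the guanylate-binding and immunity-related GTPases, Gbp2 was higher in p38i, 1 of 9 tested, and none of 9 was called in p38KO. With the marked members left out, none of 7 was called in p38i and Iigp1 was lower in p38KO, 1 of 6. MHC class I and immunoproteasome genes had 1 of 16 lower in p38KO, Nlrc5, the transactivator of class I genes, and none of 16 in p38i, with and without the marked members. None of 7 and 8 survival and death genes was called against Vehicle, and without the marked members Bcl2a1b was lower in p38i, 1 of 5.

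Glycolysis and hypoxia genes had 3 of 15 higher in p38i, Slc2a1, Pgam1 and Bnip3, with 34, 34 and 36 of their counts in 1 cell, and none of the 3 was called without the marked members. Tpi1 and Hif1a were then called lower in p38i, 2 of 10, and the median of the list there went from 0.28 to -0.33. In p38KO 3 of 14 were lower, the enzymes Pfkp (-0.60) and Tpi1 (-0.64) and Hif1a, the hypoxia-inducible factor (612, 436 and 393 CPM, -0.64), and these 3 were also the calls without the marked members. Heat shock and stress genes had Ddit4, an inhibitor of mTORC1, lower in both (224, 143 and 106 CPM, log2 ratios of -0.65 and -1.08), with Hspd1 also lower in p38i, 2 of 15, and Hspa1a, Hspa1b and Hspe1 also lower in p38KO, 4 of 15. Among the unmarked members Ddit4 was lower in both, 1 of 14 in p38i, and Hspe1 was the other fall in p38KO, 2 of 12.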
